A study of Mus musculus with 4 samples.

Results

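Immunoglobulin transcripts were examined in alveolar type 2 (AT2) cells sorted from bleomycin-injured mouse lungs. AT2 cells line the alveoli and make surfactant, and rearranged immunoglobulin genes are known from B cells and plasma cells. The cells that the immunoglobulin RNA came from were not measured. The genes were taken by symbol and selected on their summed raw count, as every heavy, kappa or lambda constant or variable gene and Jchain with at least 5 counts summed over the 4 libraries. This gave 209 of the 383 genes with such a symbol and of the 40092 rows in the count table. Of the others, 142 had no count and 32 had 1 to 4. At the threshold, Ighv1-49 was inside with 5 counts, all in A5-CKO 2. Igkv4-83, Igkv5-37, Igkv8-34, Ighv8-2, Ighv1-43 and Ighv1-86 were outside with 4 each. Ighmbp2 matched by its letters alone. It encodes a DNA and RNA helicase, had 9.52, 17.5, 15.9 and 10.4 CPM in the 4 libraries, and was left out of all that follows. The remaining 208 genes were 94 heavy variable, 97 kappa variable and 3 lambda variable segments, 8 heavy constant genes, the kappa constant gene, 3 lambda constant genes, the diversity segment Ighd1-1 and Jchain. Ighg3 prompted the choice of these genes, so its values are given as a description.

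Ctrl mice were Alkbh5flox/+; Sftpc-CreERT2; Rosa26-mTmG, and A5-CKO mice were Alkbh5flox/flox; Sftpc-CreERT2; Rosa26-mTmG. Alkbh5 encodes an RNA demethylase that removes m6A. The Sftpc promoter drives the tamoxifen-dependent Cre in AT2 cells, where it removes floxed Alkbh5 sequence and turns on membrane GFP. Both genotypes, which were littermates on a C57BL/6 background, received tamoxifen and then bleomycin, and GFP+ cells were sorted on day 14. Each genotype had 2 libraries, and whether each library was from 1 mouse is not given in the sources used here. Ages and sexes were not given in the sources used here. Cre was directed to AT2 cells and not to immune cells.

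The 4 libraries held 18144865, 20003789, 19987476 and 20811757 counts, in an order kept throughout: first the pair of Ctrl libraries, 1 then 2, followed by the A5-CKO pair, 1 then 2. CPM, the counts scaled to the normalized size of each library, is the unit of level. A count of 3, the floor for detection, corresponded to 0.128 to 0.177 CPM, and floors and intervals cover counting error only. Alkbh5 had 81.7 and 152 CPM in Ctrl and 19.3 and 36.6 CPM in A5-CKO. The AT2 marker Sftpc, a surfactant protein gene, had 15477, 16371, 10268 and 7856 CPM. With 2 libraries against 2, an exact permutation test of a single value cannot give a two-sided p below 0.333, so sums and shares are described with no test.

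An antibody is built of heavy and light chains, each with a variable part that binds antigen and a constant part that sets its class. A B cell joins one variable segment to a diversity and a joining segment for its heavy chain, and a variable to a joining segment for its light chain, and its descendants keep that choice. Plasma cells, the secreting end stage of the lineage, transcribe these genes at very high levels. At mucosal surfaces, including the airways, many make IgA, which the J chain links into dimers for carriage across the epithelium by the polymeric immunoglobulin receptor.

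The secreted forms of IgA and IgM share a short tail that ends in a cysteine codon next to the last, through which J chain is bound. These are shown because Jchain was among the most abundant of the genes. Sequences are 5′ to 3′ on the coding strand of the mouse genome build GRCm38, read at GENCODE M21 transcripts. They are the last 54 coding bases before the stop codon, with that cysteine codon in capitals.
Igha secretory tail (chr12:113258771-113258824, minus strand): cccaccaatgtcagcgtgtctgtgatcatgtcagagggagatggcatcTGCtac
Ighm secretory tail (chr12:113420870-113420923, minus strand): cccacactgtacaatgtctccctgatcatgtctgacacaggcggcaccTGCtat

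The secreted forms of the IgG genes end in another way, with no such codon. Their last 54 coding bases are shown because the 4 subclasses differed most in their values.
Ighg2c coding end (chr12:113287392-113287445, minus strand): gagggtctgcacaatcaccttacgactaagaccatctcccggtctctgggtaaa
Ighg2b coding end (chr12:113306392-113306445, minus strand): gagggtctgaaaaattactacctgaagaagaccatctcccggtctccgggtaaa
Ighg1 coding end (chr12:113328979-113329032, minus strand): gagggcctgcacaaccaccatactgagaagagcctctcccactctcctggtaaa
Ighg3 coding end (chr12:113359668-113359721, minus strand): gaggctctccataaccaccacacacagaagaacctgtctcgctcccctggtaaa

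Variable segments are many and alike. The last 60 coding bases are given for the segments with the most counts whose shares differed between libraries, with the last in-frame cysteine codon in capitals. In the rearranged gene, this cysteine precedes the stretch where segments are joined.
Ighv1-26 (chr12:114788372-114788431, minus strand): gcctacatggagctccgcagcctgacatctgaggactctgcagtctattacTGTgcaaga
Ighv9-3 (chr12:114140692-114140751, minus strand): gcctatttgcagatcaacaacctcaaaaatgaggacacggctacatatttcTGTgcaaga
Ighv14-1 (chr12:113931953-113932012, minus strand): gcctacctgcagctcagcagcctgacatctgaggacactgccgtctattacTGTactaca
Igkv8-21 (chr6:70314895-70314954, minus strand): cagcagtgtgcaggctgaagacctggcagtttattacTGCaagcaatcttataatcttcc
Igkv9-120 (chr6:68050397-68050456, plus strand): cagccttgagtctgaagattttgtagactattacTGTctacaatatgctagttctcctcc
Igkv12-46 (chr6:69764523-69764582, minus strand): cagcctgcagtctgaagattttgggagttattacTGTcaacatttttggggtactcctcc

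The lambda segments Iglv1 and Iglv2 differ at 8 of their last 300 coding bases, an identity of 97.3%. They are shown whole over that stretch, with the bases that differ in capitals, because their counts behaved differently between libraries.
Iglv1 (chr16:19085017-19085316, minus strand): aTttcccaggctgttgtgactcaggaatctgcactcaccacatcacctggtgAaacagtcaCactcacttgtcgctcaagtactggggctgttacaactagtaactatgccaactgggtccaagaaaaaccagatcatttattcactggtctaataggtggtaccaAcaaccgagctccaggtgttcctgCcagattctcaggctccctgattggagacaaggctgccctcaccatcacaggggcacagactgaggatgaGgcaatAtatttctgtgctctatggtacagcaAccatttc
Iglv2 (chr16:19260401-19260700, minus strand): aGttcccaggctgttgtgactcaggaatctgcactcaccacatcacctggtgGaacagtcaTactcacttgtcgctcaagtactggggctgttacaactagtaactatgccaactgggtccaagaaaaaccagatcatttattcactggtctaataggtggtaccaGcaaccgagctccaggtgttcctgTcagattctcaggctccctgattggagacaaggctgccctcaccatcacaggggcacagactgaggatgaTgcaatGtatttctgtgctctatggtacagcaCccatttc

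Such likeness limits how well reads can be told apart. Of the 207 genes with exons long enough to be compared, 129 had every 100-base window unique, among them every constant gene and Jchain. Under 90% of windows were unique in 39 genes and under 50% in 5 genes, Ighv1-71, Ighv1-62-2, Igkv6-20, Igkv8-16 and Igkv2-137. Ighv1-72, among the most counted heavy segments, had 57.2% of its windows unique and shared others with Ighv1-62-3. Values of these segments are uncertain in how they divide among copies.

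Immunoglobulin RNA differed far more between libraries of one genotype than between the means of the genotypes. The 208 genes summed to 6750, 1267, 1617 and 8686 CPM, or 0.629%, 0.109%, 0.179% and 0.976% of all counts. A5-CKO 2 was highest, Ctrl 1 next, and the other libraries were low, so the genotypes overlapped. Ctrl 1 exceeded Ctrl 2 by 5.33-fold, and A5-CKO 2 exceeded A5-CKO 1 by 5.37-fold. The means were 4008 ± 3877 CPM in Ctrl and 5152 ± 4999 CPM in A5-CKO (SD, n = 2 each), a log2 ratio of 0.36. This ratio turned to -0.39 without Ctrl 2 and to -1.31 without A5-CKO 2, and was 2.02 without Ctrl 1 and 1.12 without A5-CKO 1. In bulk RNA, more cells of a type and more RNA per cell cannot be told apart.

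The same order of libraries was seen gene by gene. Of the 208 genes, 109 (52.4%) were highest in A5-CKO 2 and 79 (38.0%) in Ctrl 1, against 11 in A5-CKO 1 and 9 in Ctrl 2. Over all 16661 genes tested, A5-CKO 2 was highest for 20.2% and Ctrl 1 for 23.6%. These sets are not like with like. The 208 genes entered on a summed count, which a single library can supply, and 54 of them were not among the genes tested. Of the variable segments, 18 reached the floor for detection in A5-CKO 2 alone and 8 in Ctrl 1 alone. Of the 13 genes made up of the constant genes and Jchain, 7 were highest in A5-CKO 2, 4 in Ctrl 1 and 2 in Ctrl 2. No count was found in 20, 62, 78 and 9 of the 208 genes.

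**Figure D1:**
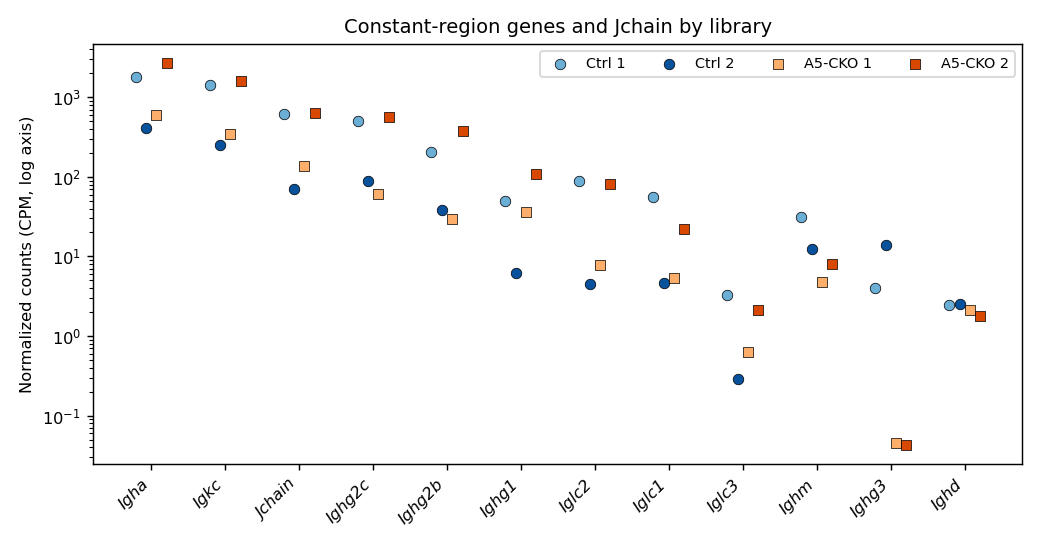
Normalized counts (CPM, log axis) of 12 immunoglobulin genes in each library, with Ctrl as circles and A5-CKO as squares. Igha to Iglc3 are high in Ctrl 1 and A5-CKO 2, whereas Ighm, Ighg3 and Ighd do not follow that order. Ighg3 had 1 count in each A5-CKO library.

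Igha, the constant gene of IgA, had the most counts of all 208 genes. It had 1813, 407, 606 and 2689 CPM. Both A5-CKO libraries lay within or above the Ctrl range, with A5-CKO 1 between the Ctrl libraries. The log2 fold change, A5-CKO over Ctrl, was 0.57 (SE 0.86, adjusted p = 0.833 over all genes, edgeR quasi-likelihood test, as for every adjusted p below). Ctrl 1 was 4.45-fold above Ctrl 2, and A5-CKO 2 was 4.44-fold above A5-CKO 1.

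Igkc, the constant gene of the kappa light chain that most mouse antibodies use, had 1438, 254, 342 and 1622 CPM. Its log2 fold change was 0.21 (SE 0.92, adjusted p = 0.944). Jchain, whose product joins IgA into dimers and IgM into pentamers, had 622, 69.6, 137 and 634 CPM. Both genes were high in Ctrl 1 and A5-CKO 2 and low in the others. For Jchain the log2 fold change was 0.16 (SE 1.02, adjusted p = 0.965).

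Among the IgG genes, Ighg2c encodes the IgG2c subclass that C57BL/6 mice carry in place of IgG2a. It had 507, 88.3, 61.1 and 557 CPM, and its log2 fold change was 0.05 (SE 1.06, adjusted p = 0.987). Ighg2b, for IgG2b, had 205, 38.5, 29.4 and 382 CPM and a log2 fold change of 0.75 (SE 1.13, adjusted p = 0.831). In both genes the A5-CKO libraries held the lowest and the highest value, on either side of Ctrl. Ighg1, the subclass favoured by type 2 help, had 49.4, 6.28, 36.3 and 109 CPM, with a log2 fold change of 1.39 (SE 0.91, adjusted p = 0.602). Here A5-CKO 1 came close to Ctrl 1 and Ctrl 2 was lowest.

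The lambda constant genes were also high in Ctrl 1 and A5-CKO 2, but with Ctrl 1 above A5-CKO 2. Iglc2 had 89.6, 4.54, 7.88 and 81.7 CPM, Iglc1 had 55.1, 4.60, 5.34 and 22.01 CPM, and Iglc3 had 3.31, 0.291, 0.634 and 2.09 CPM. The genotypes overlapped in each. Ctrl 1 exceeded Ctrl 2 by 19.8-fold for Iglc2, 12.0-fold for Iglc1 and 11.4-fold for Iglc3. The log2 fold changes were -0.07 (SE 1.33, adjusted p = 0.987), -1.12 (SE 1.08, adjusted p = 0.718) and -0.40 (SE 1.13, adjusted p = 0.917). That of Iglc2 changed sign to 0.0055 with upper-quartile scaling and to 0.20 with total counts only.

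Ighm, Ighd, Ighg3 and Ighe did not share that order. Ighm encodes the heavy chain of IgM, the class of naive B cells and of early responses, and had 31.4, 12.3, 4.71 and 7.95 CPM. Neither A5-CKO library reached the lower Ctrl library, with a log2 fold change of -1.79 (SE 0.58, unadjusted p = 0.0177, adjusted p = 0.528). It did not pass the adjusted threshold, and the fold change was -0.89 without Ctrl 1. Ighd, which encodes IgD of naive B cells, had 41, 43, 47 and 42 counts, or 2.42, 2.50, 2.13 and 1.80 CPM. Ighd was thus nearly level across libraries whose immunoglobulin sums differed by up to 6.86-fold. Its log2 fold change was -0.33 (SE 0.60, adjusted p = 0.867).

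Ighg3 encodes IgG3, a subclass made largely against polysaccharide antigens, and stood apart. It had 67 and 236 counts in Ctrl and 1 count in each A5-CKO library. Ctrl 2, which was lowest in the immunoglobulin total, had the most Ighg3 by far. The ratio of Ctrl to A5-CKO per normalized library was 202, with a 95% counting interval of 55.5 to 1676 that holds no spread between libraries. Within Ctrl, the value in Ctrl 1 was 0.289 of that in Ctrl 2, while Ctrl 1 exceeded Ctrl 2 in the other IgG genes by 5.34-fold to 7.86-fold. Ighe, for IgE, the class of allergic responses, had 0, 0, 6 and 14 counts. It was detected in both A5-CKO libraries and in neither Ctrl library, and did not pass the filter on low counts. For its 0 counts, the upper end of the 95% exact binomial interval was 0.00835% of heavy constant counts in Ctrl 1 and 0.0377% in Ctrl 2.

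Per kilobase of exon, the mean level over the 4 libraries was 1718 CPM per kb for Igkc, 517 for Igha, 229 for Ighg2c and 145 for Jchain. Iglc2 had 75.1, Ighg2b 61.2, Iglc1 47.9 and Ighg1 19.4 CPM per kb. Below these came Ighm at 7.47, Iglc3 at 3.50, Ighg3 at 1.77, Ighd at 1.16 and Ighe at 0.137 CPM per kb. Neighbours in this order overlapped in their range over libraries, except Ighd and Ighe.

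**Figure D2:**
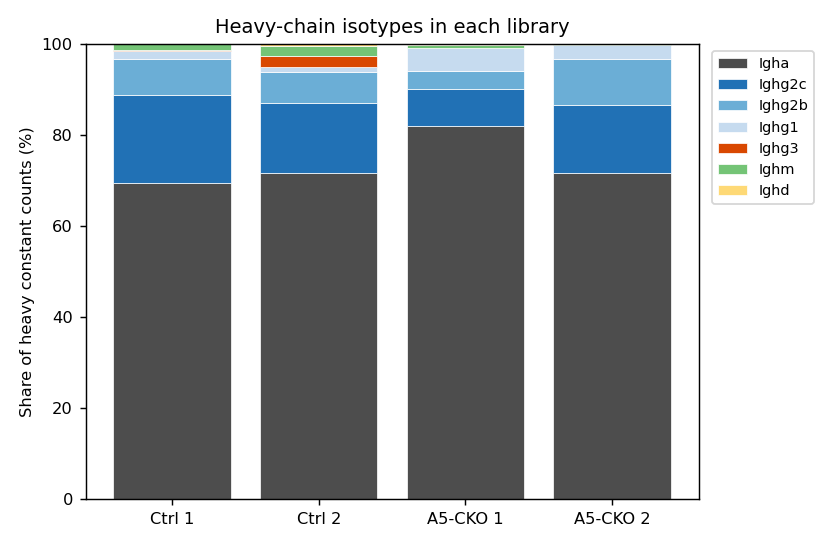
Share of heavy constant counts (%) taken by each heavy-chain gene in each library, as stacked bars. Igha takes 69.4% to 81.9%, Ighg1 is widest in A5-CKO 1, and Ighg3 is visible in Ctrl 2.

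Heavy constant counts together differed by up to 6.59-fold per normalized library, while Igha kept the largest share throughout. Igha took 69.4% (95% exact binomial interval 69.0 to 69.8), 71.6%, 81.9% and 71.8% of heavy constant counts. The 4 IgG genes together took 29.3%, 25.8%, 17.1% and 28.0%. A5-CKO 1 had the largest IgA and the smallest IgG share, and the other A5-CKO library lay within 3 percentage points of both Ctrl libraries in its IgA share. Ighm with Ighd took 1.30%, 2.60%, 0.924% and 0.260%, lower in both A5-CKO libraries than in either Ctrl library.

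Within IgG, Ighg2c led in every library, with 66.2%, 60.2%, 48.2% and 53.1% of IgG counts. Ighg1 took 6.45%, 4.28%, 28.6% and 10.4%, the largest share being in A5-CKO 1. The Ighg1 share was larger in each A5-CKO library than in Ctrl, and the Ighg2c share was smaller. Ighg3 took 0.517%, 9.36%, 0.0357% and 0.00408% of IgG counts.

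Kappa outweighed lambda everywhere. Igkc took 90.7%, 96.4%, 96.1% and 93.9% of light constant counts, and the lambda share was largest in Ctrl 1 and A5-CKO 2. Among lambda variable counts, Iglv2 took 36.8%, 9.83%, 25.4% and 42.5%, and Iglv1 took most of the rest, so these near-identical segments were not used in a fixed ratio. Iglv1 had 97.8, 8.44, 11.5 and 69.0 CPM, with a log2 fold change of -0.40 (SE 1.12, adjusted p = 0.914).

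The joining segments were looked at after their values were seen and are not among the 208 genes. Igkj1 took 21.4%, 37.6%, 1.86% and 20.2% of kappa joining counts, low in A5-CKO 1 alone. Ighj3 took 18.8%, 10.98%, 0.375% and 1.88% of heavy joining counts, low in both A5-CKO libraries. Others differed in other ways: Igkj4 took 17.4%, 1.64%, 29.5% and 11.1%, low in Ctrl 2 alone, and Ighj1 took 27.4%, 27.7%, 41.1% and 15.7%, largest in A5-CKO 1.

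The variable segments report which antibody genes were transcribed. Of the 194 segments, 68 had at least 3 counts in all 4 libraries, 51 in 3, 43 in 2 and 32 in 1 library. Since the libraries differed in variable counts, detection was also compared at equal depth. Heavy variable counts totalled 8698, 2340, 3417 and 20694, and 79, 51, 39 and 87 of the 94 segments had at least 3 counts. Thinned to 2340 counts, 77.0, 62, 51.4 and 80.1 segments were expected with at least 1 count. A5-CKO 1 was narrowest, although it had more heavy variable counts than Ctrl 2.

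The kappa segments were again fewest in A5-CKO 1. Of 97 segments, 82, 59, 46 and 88 had at least 3 counts, and thinned to 3756 counts 81.8, 68, 59.1 and 81.2 were expected with at least 1. The leading 5 segments took 31.2%, 36.1%, 51.1% and 42.3% of kappa counts. For heavy segments the leading 5 took 31.3%, 36.7%, 47.8% and 42.0%. Both A5-CKO libraries had larger shares in the leading 5 than both Ctrl libraries, and A5-CKO 1 was the most concentrated. At equal depth, however, A5-CKO 2 had 80.1 heavy and 81.2 kappa segments expected, near Ctrl 1 (77.0 and 81.8) and above Ctrl 2 (62 and 68). The genotypes overlapped in that measure.

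**Figure D3:**
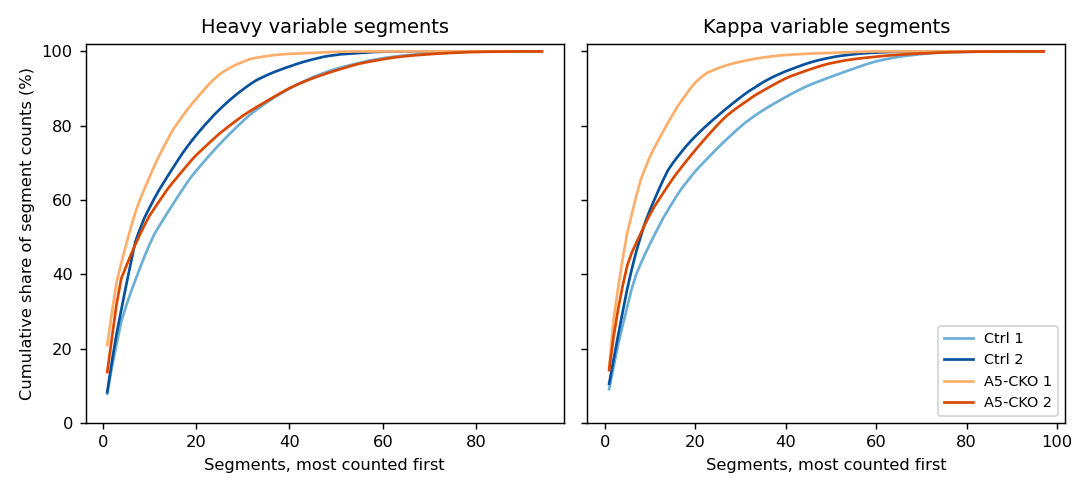
Cumulative share (%) of heavy (left) and kappa (right) variable counts against the number of segments, most counted first, for each library. The A5-CKO 1 line rises fastest in both panels, with 47.8% of heavy and 51.1% of kappa counts in its leading 5 segments.

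The leading segment differed between most libraries. Among heavy segments, Ighv1-53 led in Ctrl 1 with 7.83%, Ighv1-64 and Ighv1-75 tied in Ctrl 2 with 8.25%, Ighv9-3 led in A5-CKO 1 with 20.9%, and Ighv1-26 led in A5-CKO 2 with 13.7%. Among kappa segments, Igkv15-103 led in Ctrl 1 with 9.06%, Igkv17-127 in A5-CKO 1 with 14.8%, and Igkv8-21 in both Ctrl 2 and A5-CKO 2 with 10.5% and 14.2%. No segment led in all libraries.

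Some segments came almost wholly from 1 library. These were chosen after their values were seen. Igkv8-26 had 616 counts in Ctrl 1 and 0 in the other libraries. Ighv1-33 had 152 counts in A5-CKO 2 and 0 elsewhere. Neither passed the filter on low counts of the main edgeR comparison, and a gene with all its counts in 1 library gives no measure of spread.

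The heavy segment with the most counts was Ighv1-26, at 31.8, 8.73, 13.5 and 121 CPM. Ighv1-72 had 16.5, 8.61, 4.53 and 81.0 CPM, and Ighv1-9 had 15.1, 2.73, 2.31 and 81.2 CPM. In all 3, A5-CKO 2 stood above the other libraries and A5-CKO 1 lay within or below the Ctrl range. Ighv14-1 was more extreme, at 92, 1, 0 and 1416 counts. Their log2 fold changes ran from 1.73 for Ighv1-26 (SE 0.99, adjusted p = 0.573) to 3.46 for Ighv14-1 (SE 2.33, adjusted p = 0.611). Without A5-CKO 2, the fold changes of Ighv1-26, Ighv1-72, Ighv1-9 and Ighv14-1 all became negative.

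Ighv9-3 was the exception among the most counted heavy segments, since both A5-CKO libraries were high. It had 17.6, 10.2, 32.4 and 27.7 CPM, and the genotypes did not overlap. The log2 fold change was 1.12 (SE 0.40, unadjusted p = 0.0287, adjusted p = 0.528).

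Of the 5 light segments with the most counts, the 4 kappa segments were highest in A5-CKO 2, and Iglv1, given above, was highest in Ctrl 1. Igkv8-21 had 31.5, 23.0, 14.7 and 221 CPM, Igkv9-120 had 7.57, 3.26, 3.53 and 141 CPM, and Igkv12-46 had 240, 0, 232 and 2708 counts. In Igkv9-120 A5-CKO 1 differed little from Ctrl 2, and in Igkv12-46 Ctrl 2 alone had no count. Igkv10-96 had 48.6, 8.96, 28.1 and 83.8 CPM, closer to the order of the total. The log2 fold changes were 2.11 for Igkv8-21 (SE 1.02, adjusted p = 0.535), 3.74 for Igkv9-120 (SE 1.42, unadjusted p = 0.0339, adjusted p = 0.528), 3.15 for Igkv12-46 (SE 1.76, adjusted p = 0.567) and 0.96 for Igkv10-96 (SE 0.81, adjusted p = 0.681).

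The genotype comparison called none of these genes. Of the 208, 154 passed the filter on low counts and were tested together with all other genes, and 0 had an adjusted p under 0.05 by edgeR, as did 0 of all 16661 genes tested (0%). At an unadjusted p under 0.05, 8 immunoglobulin genes (5.19%) were higher in A5-CKO, against 4.48% of all genes tested, and 5 (3.25%) were lower, against 4.71%. These shares were near those of all genes, and the 5 include Ighg3. DESeq2 on the same genes gave 20 at an unadjusted p under 0.05 (12.99%, against 10.7% of all genes). Its adjusted p, given for 138 of them, was under 0.05 for 4 (2.90%, against 0.444% of all genes). The 4 were Ighg3, Igkv4-91, Igkv8-27 and Ighv9-2. Ighg3 prompted the choice of these genes, so its call, and the shares that count it, are description only. With the default filtering of DESeq2, Igkv4-91 had a DESeq2 adjusted p of 0.208, and Igkv8-26 was called in its place. All 616 counts of Igkv8-26 were from Ctrl 1, so that call rests on 1 library. With 1 library left out, edgeR gave an unadjusted p under 0.05 for 25 of 173 immunoglobulin genes without Ctrl 1 (14.5%, against 9.25% of all genes), 23 of 187 without Ctrl 2 (12.3%, against 7.77%), 46 of 183 without A5-CKO 1 (25.1%, against 4.30%) and 66 of 164 without A5-CKO 2 (40.2%, against 6.85%). None passed the adjusted threshold. Each such fit sets 1 library of a genotype against the pair of the other.

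Few of the genes separated the genotypes. Each A5-CKO library exceeded each Ctrl library in 9 of the 154 (5.84%), against 20.3% of all genes tested, and the reverse held in 9 (5.84%), against 23.5%. Over the 154 genes the log2 fold change had a median of 0.22, positive in 85 and negative in 69, and a median of -0.02 over all genes. The median SE was 1.44 for the immunoglobulin genes and 0.45 for all genes tested. The median moved to -3.14 without A5-CKO 2 and to 2.56 without Ctrl 1, and was -0.37 without Ctrl 2 and 1.12 without A5-CKO 1.

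**Figure D4:**
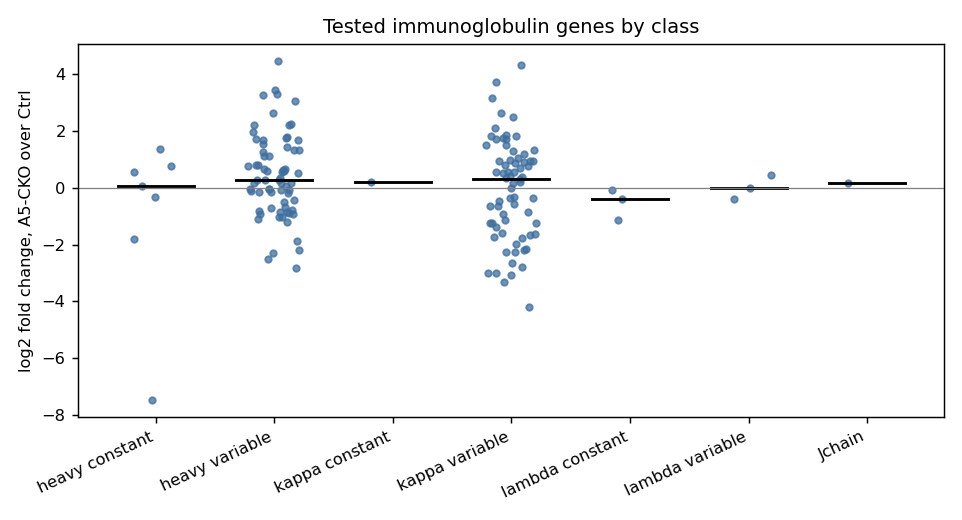
log2 fold change, A5-CKO over Ctrl, of each of the 154 tested immunoglobulin genes by class (the single diversity segment is not drawn), with a bar at the median of each class. Values spread on both sides of 0 in the heavy and kappa variable classes, and the lowest point is Ighg3.

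Of the variable segments with an unadjusted p under 0.05, Ighv9-2 was the clearest case on the A5-CKO side. It had 3, 11, 99 and 84 counts, with a log2 fold change of 3.28 (SE 0.81, unadjusted p = 0.00511, adjusted p = 0.528). Igkv4-91 had 1.95, 0.989, 4.71 and 54.4 CPM and a log2 fold change of 4.32 (SE 1.13, unadjusted p = 0.00661). In both segments the A5-CKO libraries lay above Ctrl, and most Igkv4-91 counts were from A5-CKO 2. Ighv1-84 had 2, 1, 82 and 11 counts, with most in A5-CKO 1, and Ighv1-54 had 40, 1, 156 and 310 counts. Igkv17-127 had 5.62, 6.05, 31.6 and 6.84 CPM, and Igkv17-121 had 5.56, 3.96, 16.7 and 10.6 CPM. These last 4 had log2 fold changes of 4.47, 3.06, 1.72 and 1.52, each with an adjusted p of 0.528. Without A5-CKO 1 that of Igkv17-127 was 0.22, and without A5-CKO 2 that of Igkv4-91 was 1.64.

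On the Ctrl side, Igkv8-27 had 335, 24, 13 and 13 counts, so that Ctrl 1 stood far above Ctrl 2. Its log2 fold change was -4.20 (SE 1.20, unadjusted p = 0.0104, adjusted p = 0.528), and -1.22 without Ctrl 1. Igkv3-12 had 30.6, 1.98, 0.498 and 2.78 CPM, with A5-CKO 2 above Ctrl 2, and a log2 fold change of -3.30 (SE 1.31, unadjusted p = 0.0403) that was -0.19 without Ctrl 1. Ighv1-55 had 10.3, 8.09, 1.09 and 3.89 CPM, and here both Ctrl libraries lay above both A5-CKO libraries. Its log2 fold change was -1.88 (SE 0.70, unadjusted p = 0.0325, adjusted p = 0.528).

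Genes of other cells were set beside the immunoglobulin values, by lists named in the processing notes. The plasma cell list holds 14 genes, and 1 was higher and 1 lower at an unadjusted p under 0.05, against 4.48% and 4.71% of all genes tested. Its summed level, 2394, 2944, 1400 and 1819 CPM, was carried by genes that epithelium also transcribes. Sdc1, a surface proteoglycan, had 1639, 2058, 934 and 1155 CPM, and Xbp1, a transcription factor of secretory cells, had 308, 405, 177 and 242 CPM. Txndc5, a disulfide isomerase, had 291, 362, 189 and 256 CPM. These were highest in Ctrl 2, where immunoglobulin RNA was lowest. Tnfrsf13b, a receptor for plasma cell survival factors, had 54.2, 57.4, 45.4 and 56.9 CPM.

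Other genes of the list differed in their order, and those with no unadjusted p under 0.05 were chosen after their values were seen. Mzb1, a chaperone of antibody assembly in the endoplasmic reticulum, had 23.4, 4.19, 4.48 and 17.9 CPM, with a log2 fold change of -0.30 (SE 0.90, adjusted p = 0.920). Tnfrsf17, the survival receptor BCMA, had 1.36, 0.465, 0.362 and 0.940 CPM, with a log2 fold change of -0.48 (SE 0.89, adjusted p = 0.869). Both were higher in Ctrl 1 and A5-CKO 2 than in the other libraries, with Ctrl 1 highest, and Tnfrsf17 rested on 61 counts in all. Slamf7, Cd38 and Eaf2 were also higher in those libraries. Slamf7 had 11.89, 1.396, 5.795 and 8.506 CPM, Cd38 had 9.165, 6.4, 7.153 and 18.25 CPM, and Eaf2 had 2.897, 1.629, 2.128 and 2.693 CPM. Others did not share that order: Prdm1, the transcription factor Blimp-1, had 3.31, 8.44, 7.97 and 9.49 CPM, Derl3, of endoplasmic reticulum quality control, had 10.9, 7.16, 4.30 and 4.53 CPM, and Pou2af1, a B lineage coactivator, had 5.32, 7.27, 3.76 and 21.4 CPM. Irf4, a transcription factor of plasma cells and of other activated leukocytes, had 3.90, 1.75, 8.38 and 12.2 CPM, higher in both A5-CKO libraries (log2 fold change 1.86, SE 0.60, unadjusted p = 0.0172, adjusted p = 0.528). Fkbp11, a secretory-pathway isomerase, had 29.7, 22.7, 9.55 and 12.6 CPM, lower in both (log2 fold change -1.24, SE 0.39, unadjusted p = 0.0150, adjusted p = 0.528).

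**Figure D5:**
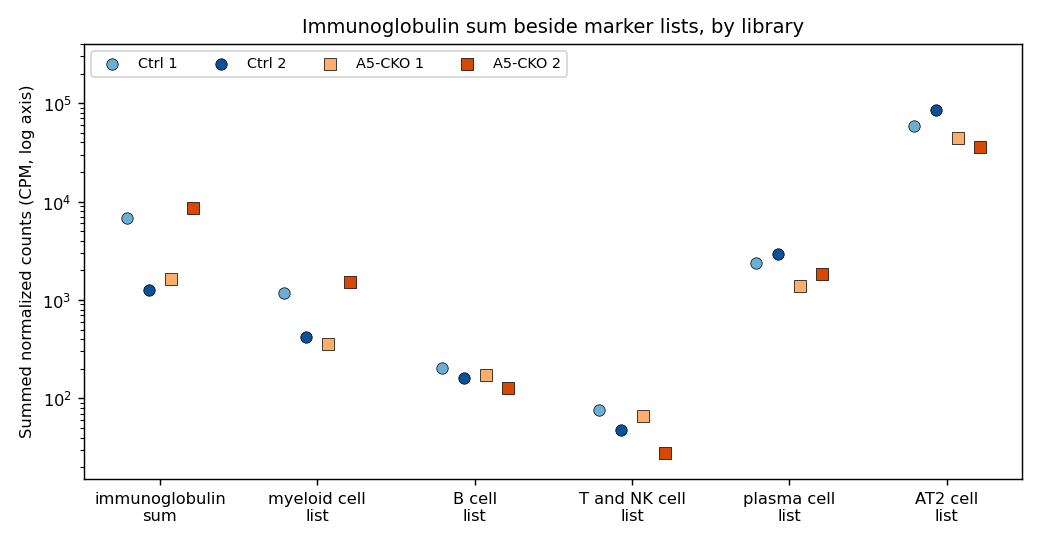
Summed normalized counts (CPM, log axis) of the immunoglobulin genes and of 5 marker lists in each library. The immunoglobulin and myeloid sums are high in Ctrl 1 and A5-CKO 2, whereas the B cell, T and NK cell, plasma cell and AT2 cell sums do not share that order.

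The sum of the B cell genes did not follow the immunoglobulin order. The 16 genes summed to 206, 160, 172 and 127 CPM, so that A5-CKO 2, with the most immunoglobulin RNA, had the least. Fcer2a, a low-affinity IgE receptor, had 61.6, 34.04, 59.5 and 48.8 CPM, and Cd79a, a part of the B cell receptor, had 16.7, 12.4, 9.64 and 10.04 CPM. Cd37, a leukocyte tetraspanin, had 17.5, 12.2, 13.8 and 18.4 CPM, in the same order as the immunoglobulin sum. Of 2 B cell surface proteins named after their values were seen, Cd22 had 12.4, 7.10, 7.02 and 11.6 CPM, higher in Ctrl 1 and A5-CKO 2, and Ms4a1 had 5.56, 4.31, 4.66 and 2.31 CPM, lowest in A5-CKO 2. Cd79b, the partner of Cd79a, had 61.5, 50.9, 34.2 and 18.6 CPM, lower in both A5-CKO libraries, and was the 1 gene of the list with an unadjusted p under 0.05 (log2 fold change -1.09, SE 0.39, unadjusted p = 0.0260, adjusted p = 0.528). Of the list, 15 genes were tested, and 4.71% of all genes tested were lower at that threshold. Ighm and Ighd, described above, also did not follow the total.

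The T and NK cell list, of 12 genes, summed to 76.5, 48.1, 66.0 and 28.1 CPM, again lowest in A5-CKO 2. Trbc2, a T cell receptor constant gene, had 15.9, 4.89, 13.5 and 4.44 CPM. Cd3g and Cd3e, chains of the complex that signals for that receptor, had 10.3, 4.54, 7.56 and 3.08 CPM and 7.86, 6.34, 6.88 and 4.02 CPM. The co-receptor gene Cd4 had 6.39, 5.41, 7.70 and 3.85 CPM. Cd28, a co-stimulatory receptor, had an unadjusted p under 0.05, but at 0.118, 0, 1.13 and 0.513 CPM both Ctrl libraries were under the floor.

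The sum of the myeloid genes was high in the libraries with a high immunoglobulin total, but Ptprc and S100a8 did not share that order. The 12 genes summed to 1177, 417, 359 and 1528 CPM. Of them, 9 were highest in A5-CKO 2 and 2 in Ctrl 1, against 20.2% and 23.6% of all genes tested. C1qa and C1qb, complement genes of macrophages, had 164, 8.90, 12.2 and 203 CPM and 191, 11.9, 16.4 and 247 CPM. Cd68, a macrophage marker, had 157, 54.6, 34.1 and 154 CPM, and S100a8, a neutrophil gene, had 118, 173, 72.8 and 188 CPM. Ptprc, which encodes the pan-leukocyte protein CD45, had 50.9, 22.5, 84.3 and 82.8 CPM, higher in both A5-CKO libraries (log2 fold change 1.19, SE 0.42, unadjusted p = 0.0260, adjusted p = 0.528). The myeloid sum was thus high in the same libraries as the immunoglobulin sum, and its part in the immunoglobulin values was not tested.

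Genes that bind or carry antibody differed in their order across libraries. Pigr, the epithelial receptor that carries IgA dimers, had 467, 413, 297 and 84.2 CPM, with a log2 fold change of -1.21 (SE 0.57, adjusted p = 0.533). Pigr was lowest in A5-CKO 2, with the most Igha, but highest in Ctrl 1, with the next most Igha. Fcgrt, part of the neonatal Fc receptor that recycles IgG, had 76.5, 98.1, 43.9 and 45.9 CPM, lower in both A5-CKO libraries (log2 fold change -0.96, SE 0.29, unadjusted p = 0.0138, adjusted p = 0.528). The leukocyte Fc receptor genes Fcgr3 and Fcgr2b followed the myeloid order, at 93.7, 23.6, 15.6 and 113 CPM and 45.7, 5.64, 6.75 and 85.4 CPM. Trim21, a cytosolic antibody receptor, had 15.2, 13.8, 17.8 and 10.5 CPM. Of the 8 genes in this list, 1 was lower and 0 higher at an unadjusted p under 0.05 by edgeR, against 4.71% and 4.48% of all genes tested, and 0 had an adjusted p under 0.05.

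Of 12 genes for recruitment and survival of B and plasma cells, 8 were tested and 3 had no count in any library. Tnfsf13, which encodes the plasma cell survival factor APRIL, had 152, 133, 66.4 and 44.8 CPM. It was lower in both A5-CKO libraries (log2 fold change -1.35, SE 0.32, unadjusted p = 0.00424, adjusted p = 0.528), and did not follow the immunoglobulin total. Cxcl12, a chemokine that attracts plasma cells, had 22, 14.9, 14.5 and 46.8 CPM, and Ccl20, a chemokine for B cells, had 46.7, 4.54, 13.2 and 4.40 CPM. Il6, a cytokine that supports plasma cells, had 2.25, 0.465, 4.17 and 5.64 CPM. Cxcl13, which draws B cells into follicles, had 2.01, 1.40, 0.272 and 9.79 CPM.

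The AT2 cell list summed to 59048, 84818, 43842 and 36271 CPM. All 12 genes had a negative log2 fold change, with a median of -0.85, and in 9 each A5-CKO library was under each Ctrl library, which held for 23.5% of all genes tested. Sftpb, a surfactant protein gene, had 274, 420, 150 and 169 CPM as counted under that symbol, and Napsa, a surfactant-processing protease, had 4078, 4505, 1846 and 2087 CPM. Of the most abundant genes, Sftpa1 had 15249, 20810, 11124 and 9094 CPM, Slc34a2, a phosphate transporter, had 8753, 19065, 7556 and 7013 CPM, and Sftpd had 5865, 7264, 3683 and 3444 CPM. Sftpb and Napsa were the 2 genes of the 12 with an unadjusted p under 0.05, with log2 fold changes of -1.12 (SE 0.35, adjusted p = 0.528) and -1.13 (SE 0.39, adjusted p = 0.528). Over all genes tested, 4.71% were lower at that threshold. The library with the lowest AT2 sum, A5-CKO 2, had the most immunoglobulin RNA, and the one with the highest, Ctrl 2, had the least. The other libraries did not run in opposite order: Ctrl 1 exceeded A5-CKO 1 in both sums, with 6750 against 1617 CPM of immunoglobulin RNA. The part of AT2 content in the immunoglobulin values was not tested.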

How the data were processed

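RNA of GFP+ AT2 cells was sequenced from 2 Ctrl and 2 A5-CKO SMARTER libraries. The deposited values are whole read counts per gene, which the authors made with Trim Galore 0.6.10, removal of ribosomal RNA, HISAT2 2.2.1 on mm10, removal of duplicates and featureCounts 2.0.3 on an NCBI annotation. The strand setting is not given in the sources used here. The text describes duplicate removal and counting under another assay, and they were taken to apply here. Removing duplicates lowers counts of short, very abundant genes. Genes of the immunoglobulin loci were counted as germline segments, so reads across joins may be lost.

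Here, edgeR 4.0.16 (R 4.3.3) was run on all 16661 genes left by filterByExpr, with TMM factors, the quasi-likelihood test and Benjamini-Hochberg adjustment at 0.05. CPM used TMM-scaled totals. DESeq2 1.42.0, other scalings and filters, a replicate block and each library left out were alternatives. Nothing says how far replicates shared an origin beyond being separate samples, so p-values measure the spread between these samples. Libraries of one genotype differed by more than sampling noise, with a chi-square per degree of freedom of 110 and 96.4. Positions and names came from GENCODE M21 and a RefSeq table, in which all 209 genes matched. Exact 100-base windows of the transcripts of these genes were compared with the transcripts of all annotated genes.

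Named genes were all constant members and Jchain, the 5 heavy and 5 light variable segments with most counts, members with an unadjusted p under 0.05, and in 7 lists each gene with such a p or otherwise the 4 with most counts; others are marked. The lists were plasma cell, B cell, T and NK cell, myeloid cell, Fc receptors and immunoglobulin transport, B cell and plasma cell recruitment and survival, and AT2 cell. Members and lists were chosen with earlier results of these data known.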

Additional observations from a re-analysis of the deposited data

How the results depend on the processing

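With 2 libraries per genotype, 1 library sets most values. The DESeq2 counts of immunoglobulin genes given here include Ighg3, which prompted the choice of these genes. The number of genes with an adjusted p under 0.05, 0 by edgeR under every scaling, filter, block and omission, was 64 over all genes with DESeq2 on the same genes and 59 with its default filtering, including 4 and 4 immunoglobulin genes. At an unadjusted p under 0.05, the immunoglobulin count of 13 became 20 and 23 with DESeq2 and 23 to 66 with a library left out. The all-gene count of 1530 became 754 with the replicate block and 746 to 1668 with a library left out. The listed-gene count of 9 became 14 with no filter, 19 and 20 with DESeq2, and 5 to 13 with a library left out. The median immunoglobulin log2 fold change ranged from -3.14 to 2.56 with a library left out. The labels do not say that replicate numbers pair samples, and same-numbered libraries did not deviate together (correlation -0.36), so the block is given as an alternative only. The replicate block turned the median immunoglobulin log2 fold change from 0.22 to -0.20, Ighg2c to -0.20, Iglc2 to 0.30 and Iglc3 to 0.10, and left the immunoglobulin count at 11. Iglc2 also turned to 0.0055 with upper-quartile scaling and 0.20 with total counts only. With a library left out, log2 fold changes changed sign in 18 of the 42 named genes. They ranged from -0.90 to 2.10 for Igha, -1.34 to 2.03 for Igkc, -1.37 to 2.55 for Jchain, -2.31 to 1.89 for Ighg2c, -2.08 to 2.50 for Ighg2b, -2.51 to 1.65 for Iglc1, -2.61 to 3.38 for Iglc2, -1.53 to 2.28 for Iglc3, -2.23 to 2.33 for Iglv1, -0.61 to 3.03 for Ighv1-26, -1.501 to 2.68 for Ighv1-72, -1.98 to 4.02 for Ighv1-9, -8.70 to 8.97 for Ighv14-1, -0.92 to 3.01 for Igkv8-21, -0.65 to 4.69 for Igkv9-120, -0.065 to 2.71 for Igkv10-96, -1.65 to 1.49 for Mzb1 and -1.35 to 0.55 for Tnfrsf17. Beyond the libraries used, the cause was not tested. Such omissions leave 1 library in a genotype, which is assumed to vary like the other pair. The log2 ratio of the immunoglobulin total, 0.36, ranged from -1.31 to 2.02, and the difference in mean IgA share, A5-CKO minus Ctrl, 6.34 percentage points, was 1.26 when A5-CKO 1 was omitted and 11.4 when A5-CKO 2 was.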
